A study of Mus musculus with 14 samples.

Results

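In all, 10 genes of amino acid synthesis and transport that are known targets of the transcription factor ATF4 were examined in mouse brown adipose tissue. They were taken as a list of symbols, drawn up with earlier results of these libraries known, and each was matched to its Ensembl identifier among the 35275 genes measured, so that 10 of 10 were found. The 4 synthesis genes were Asns, Aldh18a1, Pycr1 and Cth, and the 6 transport genes were Slc7a11, Slc7a5, Slc3a2, Slc7a1, Slc38a2 and Slc1a4. RNA sequencing compared C57BL/6 mice aged 8 weeks that carried floxed Lrpprc alleles (LrpprcFF), with or without a Ucp1-Cre transgene, at 2 housing temperatures. At room temperature (22 °C) there were 4 LrpprcFF controls and 4 LrpprcFF Ucp1-Cre knockouts, and at thermoneutrality (30 °C) there were 3 of each. The floxed alleles were therefore common to all 4 groups, and no group held Ucp1-Cre alone. Each library had an animal identifier of its own, and the identifiers of 2 of the 4 controls at 22 °C began with R and the others with E. Lrpprc encodes an RNA-binding protein of mitochondria, and Ucp1-Cre is active in cells that express Ucp1, so other cells of the tissue keep the gene. The labels name brown adipocytes, but total RNA came from homogenized tissue.

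ATF4 is a transcription factor of the integrated stress response. Its translation increases when the initiation factor eIF2alpha is phosphorylated, and with C/EBP family partners it activates genes for making and importing amino acids. Defects in mitochondrial gene expression are among the stresses known to engage this response in several tissues. Within the list, Asns makes asparagine from aspartate, Aldh18a1 and Pycr1 act in the synthesis of proline from glutamate, and Cth makes cysteine from cystathionine. Slc3a2 encodes the heavy chain that pairs with light chains such as Slc7a5, a carrier of large neutral amino acids, and Slc7a11, the cystine-glutamate exchanger. Slc7a1 carries cationic amino acids, Slc38a2 carries small neutral amino acids with sodium, and Slc1a4 exchanges alanine, serine and cysteine.

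ATF4 and its C/EBP partners bind a composite element, and the promoter letters of the listed genes that hold a match to its motif are shown for that reason. The motif TGATGNAA was searched on both strands (TTNCATCA is its other strand) in RefSeq promoter windows of GRCm38.p6, from 250 bases before to 50 bases from the transcription start. It was found in 4 of the 8 genes of the list in that table, against 3.97% of all 32851 windows and 4.51% of 27025 genes. The stricter form TGATGCAA, which every match to it shares with the first motif, was found in 3 of the 8, against 0.895% of windows and 1.03% of genes. The stretches that hold a match are printed 5′ to 3′ along the gene, which lies on the minus strand in each of the 4 cases, with the matched letters in capitals. They lie at chr6:7693210-7693269 (Asns), chr11:120643822-120643881 (Pycr1), chr3:50443650-50443709 (Slc7a11) and chr11:20332710-20332773 (Slc1a4).
Asns: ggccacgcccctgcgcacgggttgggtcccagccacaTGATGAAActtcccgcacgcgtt
Pycr1: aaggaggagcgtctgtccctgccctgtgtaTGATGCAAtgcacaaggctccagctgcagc
Slc7a11: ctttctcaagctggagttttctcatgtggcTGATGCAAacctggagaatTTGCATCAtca
Slc1a4: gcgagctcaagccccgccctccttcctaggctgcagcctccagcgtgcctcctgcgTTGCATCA
The first base of the match lay at -23 in Asns, -103 in Pycr1, -66 and -47 in Slc7a11 and -4 in Slc1a4, counted from the transcription start. The windows of Aldh18a1, Slc3a2, Slc7a1 and Slc38a2 did not hold these letters, and Cth and Slc7a5 were not among the windows examined. In the tests below, Pycr1 was called higher in knockouts at both temperatures, Asns and Slc1a4 at neither, and Slc7a11 did not pass the filter. Of the genes without the letters, Aldh18a1, Slc3a2 and Slc7a1 were called higher at both temperatures and Slc38a2 at 30 °C. A link between the letters and the changes was not tested. A match is a string of letters and not a measured binding site.

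Levels are given as scaled FPKM, which is fragments per length of gene and per depth of library after a further scaling of each library on nuclear genes, so that genes can be compared per length. Depth was 15.9 to 21.3 M fragments per library. Fold changes are log2 differences of scaled FPKM plus 1, tested with limma on the 13079 genes that reached 1 FPKM in 3 or more libraries, with p-values adjusted over all of them. A gene was called at an adjusted p under 0.05. Of the 10 genes, 9 passed the filter on low values, and Slc7a11 did not. Pycr1, Slc7a5 and Slc7a1 stayed below 1 FPKM in every control (at most 0.935, 0.759 and 0.889 as deposited). They passed only through the knockouts, where they were higher, and Slc1a4 also needed the knockouts to pass. The targeted gene Lrpprc was at 25.3 to 57.3 scaled FPKM in the controls and 8.84 to 11.2 in the knockouts at 22 °C, and at 30.3 to 32.7 against 4.97 to 8.56 at 30 °C. All 10 markers of brown adipocytes listed for the check of the label were detected in every group.

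In controls at 22 °C the order of mean levels per length was Asns (35.0 scaled FPKM), Slc3a2 (21.2), Slc38a2 (17.8), Cth (2.18), Aldh18a1 (0.992), Slc7a1 (0.667), Slc1a4 (0.446), Pycr1 (0.303), Slc7a5 (0.192) and Slc7a11 (0.00161). Slc38a2 and Cth were apart, as were Slc7a5 and Slc7a11 and Cth and Aldh18a1, while the ranges of the other neighbours in this order overlapped. In knockouts at 22 °C Slc3a2 (65.7) stood first, and Aldh18a1 (5.07) and Slc7a1 (2.74) were above Cth (2.32) by their means.

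Among these genes, the proline synthesis pair Aldh18a1 and Pycr1, the heavy chain Slc3a2 and the arginine and lysine carrier Slc7a1 rose in the knockouts at both temperatures. Slc7a5 and Slc38a2 passed the test at 30 °C and not at 22 °C. Asns, Cth and Slc1a4 passed it at neither. The count was 4 of 9 tested genes at 22 °C, all higher in knockouts, where 1.97% of all genes tested were called (0.91% higher and 1.06% lower). It was 6 of 9 at 30 °C, again all higher, where 14.1% of all genes tested were called (8.82% higher and 5.28% lower). The median log2 fold change of the 9 tested genes was 0.86 at 22 °C and 1.0 at 30 °C, beside 0.0024 and 0.0649 over all genes. Every knockout lay above every control for 7 of the 9 at 22 °C and 6 of the 9 at 30 °C, and over all genes tested this held for 4.85% and 22.2%. The counts and medians include Pycr1, Slc7a5 and Slc7a1, which passed the filter only through knockouts, and Slc1a4, which did so in part. Their share of the counts is therefore no independent evidence. All values are levels in bulk tissue, where a change in the mix of cells and a change in RNA per cell cannot be told apart.

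**Figure D1:**
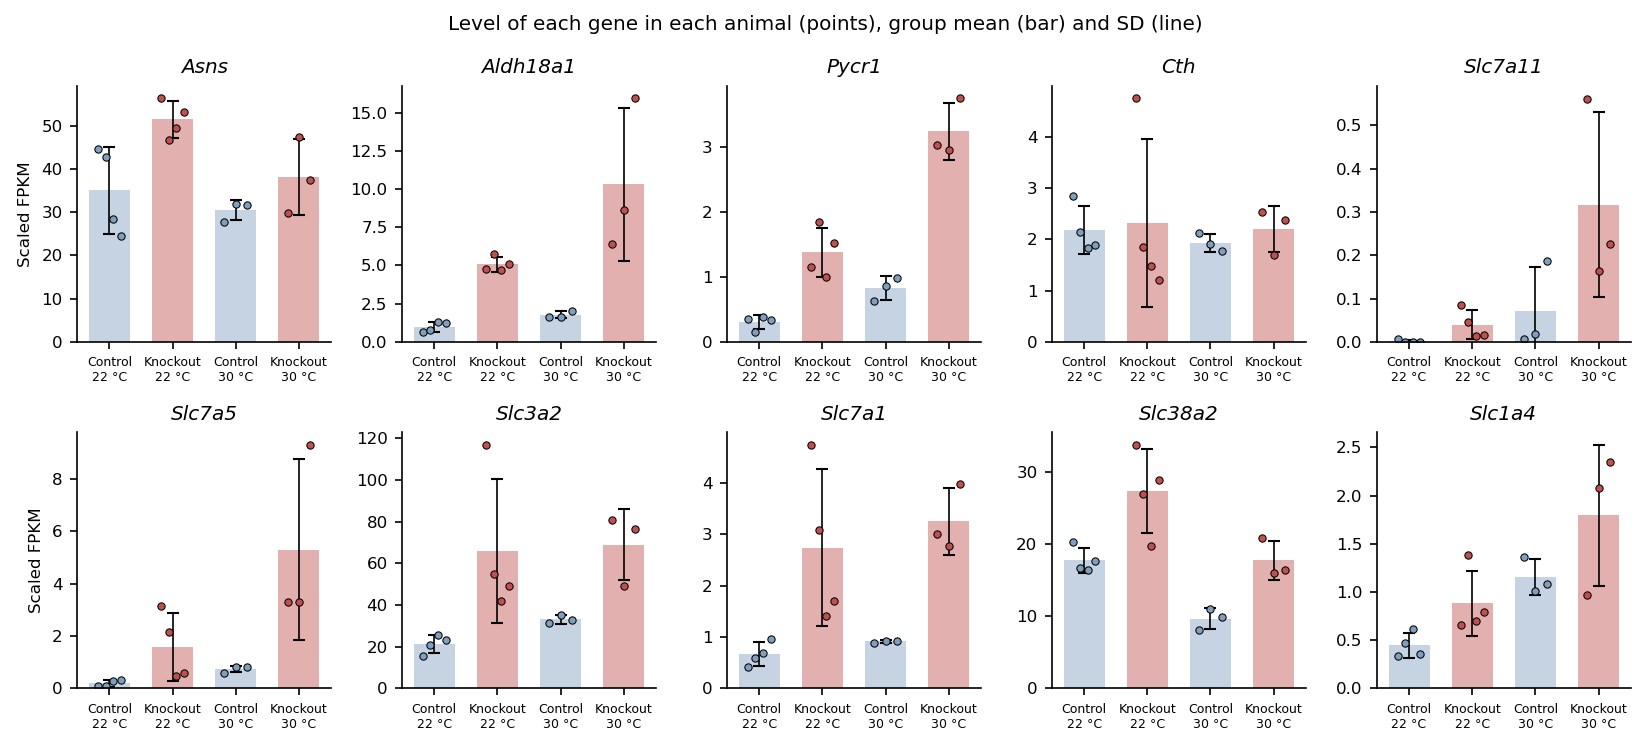
Scaled FPKM (y axis) of each of the 10 genes in every animal, by genotype and housing temperature (x axis), with points for animals, the group mean and the SD. Aldh18a1 reached 4.67 to 5.76 in the 4 knockouts at 22 °C and 0.656 to 1.28 in the 4 controls, while the Cth values of knockouts and controls overlap at both temperatures.

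Aldh18a1 encodes the enzyme that starts proline synthesis from glutamate, and on the scale of scaled FPKM plus 1 it had the largest log2 fold change of the 9 tested genes at both temperatures. With limma voom on whole reads recovered from the FPKM values, Slc7a5 was larger (2.85 at 22 °C and 2.64 at 30 °C, against 2.39 and 2.44 for Aldh18a1), and with a pseudocount of 0.1 it was larger at 30 °C (2.52 against 2.39). At 22 °C its level was 0.656, 0.789, 1.28 and 1.24 scaled FPKM in the 4 controls and 4.74, 5.76, 4.67 and 5.09 in the 4 knockouts. The groups did not overlap, and the lowest knockout was several times above the highest control. The means were 0.992 ± 0.317 and 5.07 ± 0.495 (SD, n = 4 each), a ratio of 5.11, and limma put the log2 fold change at 1.62 (SE 0.20, adjusted p = 0.000896). The controls at 30 °C were at 1.61, 1.65 and 2.02 and the knockouts at 6.41, 8.61 and 16 scaled FPKM. All 3 knockouts were above all 3 controls, and knockout 3 was far above the other 2. In the limma fit the change was 1.95 on the log2 scale (SE 0.24, adjusted p = 0.000382) and the ratio of means was 5.86.

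Pycr1 encodes a mitochondrial reductase of the last step to proline, and it was far less abundant per length than Aldh18a1. Its level at 22 °C was 0.346, 0.149, 0.379 and 0.338 scaled FPKM in controls, from 7 to 20 reads a library, and 1.16, 1.84, 1.0 and 1.53 in knockouts, from 49 to 115 reads. At 30 °C it was 0.631, 0.863 and 0.987 in controls and 3.03, 2.96 and 3.76 in knockouts. Knockouts and controls did not overlap at either temperature. The ratio of means was 4.56 at 22 °C and 3.93 at 30 °C. The log2 fold changes were 0.86 (SE 0.13, limma adjusted p = 0.00527) and 1.22 (SE 0.15, limma adjusted p = 0.000449). Because the added 1 FPKM shrinks changes of weakly expressed genes, limma voom on the whole reads recovered from the FPKM values gave larger ones, 2.20 at 22 °C and 1.97 at 30 °C. Aldh18a1 and Pycr1 passed the threshold in both knockout comparisons under every alternative that was run, leaving out each animal included.

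Pycr3, Prodh, Aldh4a1 and Oat, which also act in proline metabolism, did not pass the test in either knockout comparison. Pycr3, which encodes a pyrroline-5-carboxylate reductase, had log2 fold changes of -0.15 at 22 °C and -0.22 at 30 °C. Prodh and Aldh4a1, which encode the enzymes of proline breakdown, were at -0.65 and -0.39 at 22 °C and at -0.19 and -0.35 at 30 °C. Oat, for ornithine aminotransferase, which links ornithine to the same pathway, was at -0.16 and 0.01. The limma adjusted p over these genes and both temperatures was smallest for Aldh4a1 at 30 °C (0.121).

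Asns, the asparagine synthetase gene and the one with the highest mean of the 10 in controls at 22 °C, is among the best known ATF4 targets. Its level at 22 °C was 44.6, 42.7, 28.3 and 24.6 scaled FPKM in controls and 56.4, 46.6, 49.5 and 53.2 in knockouts. All knockouts were above all controls, and the low controls were those with R identifiers. The log2 fold change was 0.58 (SE 0.18, 95% interval 0.19 to 0.98), which limma did not call (adjusted p = 0.131). It ran from 0.23 to 0.88 over 9 alternatives, with limma adjusted p up to 0.445. These included leaving out the R controls but not single animals. Without the R controls the Asns effect at 22 °C minus that at 30 °C was -0.0685, against 0.28 in the main fit. The size of the change at 22 °C therefore rested in part on those controls. At 30 °C the controls were at 27.8, 31.8 and 31.7 and the knockouts at 29.7, 47.3 and 37.5 scaled FPKM, so that the lowest knockout fell within the control range. Its change was 0.30 on the log2 scale (SE 0.21, 95% interval -0.16 to 0.75, limma adjusted p = 0.399). With FPKM as deposited, where the median gene was shifted by 0.24 at 22 °C and 0.31 at 30 °C, limma called Asns at both temperatures (0.88, adjusted p = 0.00675, and 0.59, adjusted p = 0.0394).

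Cth, for cystathionine gamma-lyase, had overlapping groups at both temperatures. At 22 °C it was at 2.84, 2.15, 1.83 and 1.9 scaled FPKM in controls and 4.76, 1.85, 1.48 and 1.21 in knockouts. The first knockout was the highest of the 8 animals and the other 3 knockouts were at or below the middle of the controls. The controls at 30 °C were at 2.12, 1.91 and 1.78 and the knockouts at 2.53, 1.69 and 2.38. The log2 fold changes were -0.04 (95% interval -0.55 to 0.48) and 0.12 (95% interval -0.48 to 0.71), with limma adjusted p = 0.963 and 0.83, and the sign depended on the scaling at both temperatures.

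Slc3a2, the heavy chain of several heteromeric transporters, had the highest mean of the 10 genes in knockouts at both temperatures, and overlapped Asns at 22 °C but not at 30 °C. At 22 °C it was at 15.4, 20.7, 25.3 and 23.4 scaled FPKM in controls and 117, 55.1, 42.0 and 48.9 in knockouts. The groups did not overlap, and the first knockout was well above the other 3. A log2 difference of 1.49 was fitted (SE 0.27, limma adjusted p = 0.0155) and the ratio of means was 3.10. The controls at 30 °C were at 31.2, 35.3 and 33.0 and the knockouts at 80.9, 49.2 and 76.3, again without overlap. The log2 fold change of 1.0 (SE 0.31) was close to the threshold (limma adjusted p = 0.0478). It lost the call without control 1, 2 or 3 or knockout 1 or 3 at 30 °C, with limma adjusted p of 0.123, 0.103, 0.102, 0.166 and 0.147 and log2 fold changes from 0.87 to 1.05. It was also lost with a pseudocount of 0.1 (limma adjusted p = 0.0516) and without the filter on low values (limma adjusted p = 0.0855). At 22 °C the call was lost without control 1 (1.35, limma adjusted p = 0.0502) and with a fit to the compared groups alone (limma adjusted p = 0.0621).

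Slc7a5 had the largest ratio of means between genotypes of the 9 tested genes, at both temperatures. It was at 0.101, 0.0703, 0.283 and 0.315 scaled FPKM in controls at 22 °C, from 4 to 18 reads a library, and at 3.16, 2.14, 0.474 and 0.582 in knockouts. All 4 knockouts were above all 4 controls, and knockouts 1 and 2 were several times above knockouts 3 and 4. The ratio of means was 8.26, yet with this spread the log2 fold change of 0.98 (SE 0.33, 95% interval 0.27 to 1.70) was not called (limma adjusted p = 0.159). At 30 °C the controls were at 0.602, 0.811 and 0.802 and the knockouts at 3.30, 3.30 and 9.32. Knockout 3 stood far above the others, and the lowest knockout was above every control. The limma fit put the log2 fold change at 1.73 (SE 0.38, adjusted p = 0.0111), with a ratio of means of 7.19. With limma voom on recovered reads it was 2.85 at 22 °C (adjusted p = 0.177) and 2.64 at 30 °C, and with FPKM as deposited limma called the 22 °C difference (1.07, adjusted p = 0.0384).

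The light chains of Slc3a2 differed in direction. Summed over 6 light chain genes (Slc7a5, Slc7a6, Slc7a7, Slc7a8, Slc7a10 and Slc7a11), the level was 35.7 ± 4.23 scaled FPKM in controls and 30.3 ± 2.63 in knockouts at 22 °C (SD, n = 4 each). At 30 °C the sum was 45.9 ± 9.93 and 41.1 ± 3.06 (SD, n = 3 each). The ranges of the sum overlapped at both temperatures, while Slc3a2 itself did not overlap. Slc7a5 made up 0.213% to 0.927% of the sum in controls and 1.65% to 9.40% in knockouts at 22 °C, and 1.05% to 2.03% against 8.19% to 20.9% at 30 °C. Slc7a6, a carrier of cationic and neutral amino acids, was at 16.3, 19.5 and 20.3 scaled FPKM in controls and 9.06, 11.5 and 10.3 in knockouts at 30 °C. Its log2 fold change fell by 0.80 (SE 0.15, limma adjusted p = 0.00483). Slc7a7, a carrier of cationic and neutral amino acids, was at 1.43, 1.44 and 1.69 in controls and 3.20, 2.30 and 3.01 in knockouts at 30 °C, and it rose there (0.60, SE 0.14, limma adjusted p = 0.0141). Slc7a8 had log2 fold changes of 0.22 at 22 °C and 0.33 at 30 °C and Slc7a10 of -0.15 and -0.25, and neither was called (limma adjusted p from 0.521 to 0.885). The most abundant light chain in a library was Slc7a6, Slc7a8 or Slc7a10, and never Slc7a5.

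**Figure D2:**
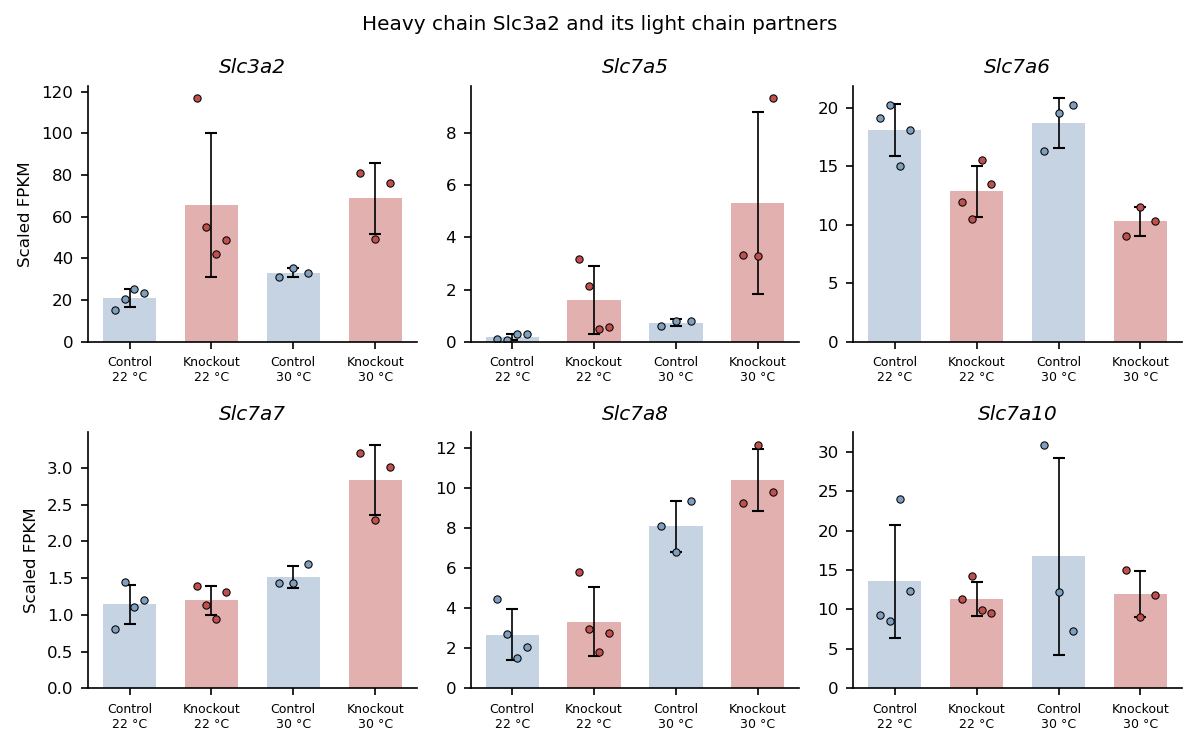
Scaled FPKM (y axes, from 0) of the heavy chain Slc3a2 and of 5 light chain genes in the 4 groups (x axes), with bars for means, error bars for the SD and points for animals. Slc3a2 and Slc7a5 are higher in every knockout than in every control of the same temperature, while Slc7a6 is lower in all 3 knockouts at 30 °C.

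Slc7a11, the light chain of the cystine-glutamate exchanger, was barely detected. The 4 controls at 22 °C had 1, 0, 0 and 0 reads, and the 4 knockouts 16, 9, 2 and 3. At 30 °C the 3 controls had 1, 3 and 30 reads and the knockouts 123, 35 and 43. Every knockout had more than every control at 22 °C, though knockouts 3 and 4 were within the 3 reads that a count of 0 allows (0.0180 to 0.0201 scaled FPKM in the controls). At 30 °C the groups overlapped per length and depth, with control 3 (0.187 scaled FPKM) above the lowest knockout (0.164). The knockout mean of 0.317 ± 0.214 scaled FPKM (SD, n = 3) was below that of any other gene of the list. In a fit without the filter on low values, limma gave adjusted p = 0.900 at 22 °C and 0.0775 at 30 °C. Read numbers and these limits cover counting error only.

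Slc7a1, which imports arginine and lysine, was at 0.421, 0.594, 0.685 and 0.969 scaled FPKM in controls and 4.75, 3.09, 1.42 and 1.71 in knockouts at 22 °C. Knockouts 1 and 2 were again the high ones, and the groups did not overlap. In the limma fit the change was 1.09 on the log2 scale (SE 0.23, adjusted p = 0.0287) and the ratio of means 4.11. This call was lost without control 1 (limma adjusted p = 0.0791), control 2 (0.067), knockout 1 (0.0555) or knockout 2 (0.0978), and without both R controls (0.0524). It was also lost without the filter (limma adjusted p = 0.0698) and in a fit to the compared groups alone (limma adjusted p = 0.112). The controls at 30 °C were at 0.885, 0.927 and 0.93 and the knockouts at 3.0, 2.77 and 3.99, a ratio of means of 3.56. The 3 controls were nearly equal, and every knockout was well above them. A log2 difference of 1.14 was fitted (SE 0.26, limma adjusted p = 0.0121), and without knockout 3 it was 1.02 (limma adjusted p = 0.0545). With limma voom on recovered reads it was 1.96 at 22 °C and 1.81 at 30 °C.

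Slc38a2, a sodium-coupled carrier of small neutral amino acids, was at 20.3, 16.7, 16.5 and 17.6 scaled FPKM in controls and 33.8, 26.9, 19.8 and 28.9 in knockouts at 22 °C. Knockout 3 lay within the control range and the other 3 above it. The limma fit put the log2 fold change at 0.58 (SE 0.15, adjusted p = 0.0742). Without knockout 3 it was 0.72 and was called (limma adjusted p = 0.016), as it was with FPKM as deposited (0.87, limma adjusted p = 0.00388), the same total over nuclear genes (limma adjusted p = 0.022) and sample weights (limma adjusted p = 0.0281). At 30 °C the controls were at 8.07, 11 and 9.93 and the knockouts at 20.9, 16 and 16.4. The groups did not overlap. In the limma fit the change was 0.82 on the log2 scale (SE 0.18, adjusted p = 0.00965), and the ratio of means was 1.84.

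Slc1a4, the exchanger of alanine, serine and cysteine, was at 0.332, 0.472, 0.619 and 0.361 scaled FPKM in controls and 0.658, 1.38, 0.697 and 0.795 in knockouts at 22 °C. The controls at 30 °C were at 1.36, 1.01 and 1.08 and the knockouts at 0.965, 2.08 and 2.35. The groups did not overlap at 22 °C, and at 30 °C the lowest value was that of a knockout. The log2 fold changes of 0.37 (SE 0.17) and 0.34 (SE 0.20) were not called (limma adjusted p = 0.316 and 0.283). The ratio of means was 1.98 at 22 °C and 1.56 at 30 °C. Alternatives besides leaving out single animals gave log2 fold changes of 0.31 to 0.95 at 22 °C and 0.23 to 0.53 at 30 °C, and none was called.

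**Figure D3:**
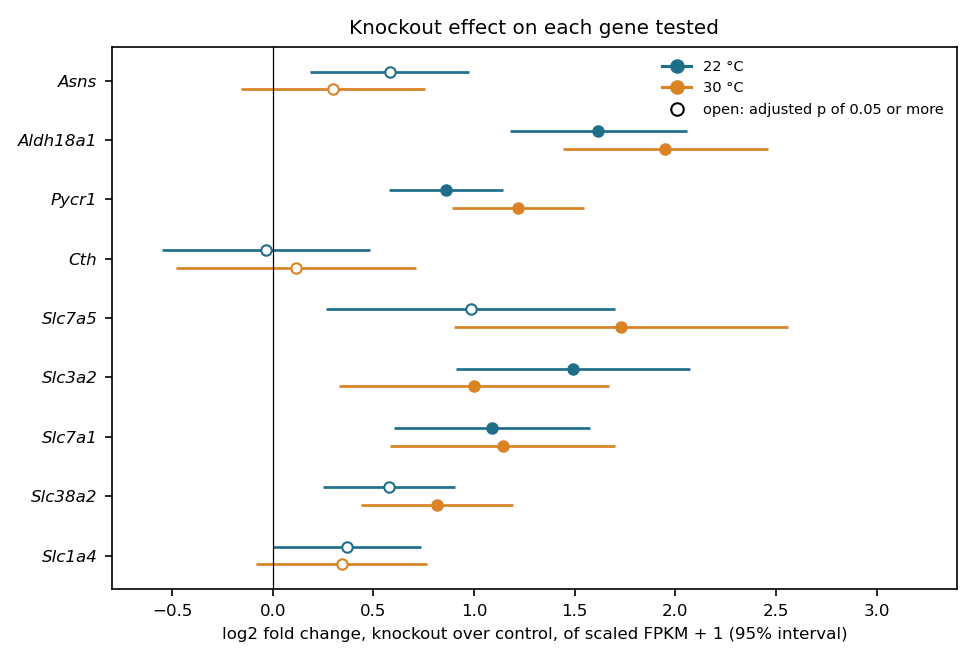
Log2 fold change of scaled FPKM plus 1 (knockout against control) of the 9 tested genes at 22 °C and 30 °C, with 95% intervals from limma, not adjusted for the number of genes, and filled points for an adjusted p under 0.05. Aldh18a1 is the largest at both temperatures on this scale (1.62 and 1.95), and the intervals of Cth include 0 at both.

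The knockout effect did not pass a test of difference between the temperatures for any of the 9 tested genes. The limma adjusted p for that difference ranged from 0.49 to 0.983, and 0 of the 9 were below 0.05 before adjustment. Over all genes 0 were called (0% of 13079), with 1694 at an unadjusted p under 0.05 and a smallest limma adjusted p of 0.0521. The intervals were wide. For Slc7a5 the effect at 22 °C minus that at 30 °C was -0.75 on the log2 scale (95% interval -1.84 to 0.35), for Slc3a2 0.49 (95% interval -0.40 to 1.38) and for Slc38a2 -0.24 (95% interval -0.74 to 0.26). For Aldh18a1 it was -0.33 (95% interval -1.01 to 0.34). A call at 30 °C and not at 22 °C, as for Slc7a5 and Slc38a2, is therefore no measured difference. The animals at 22 °C and 30 °C also differed in the sex-linked transcripts Xist and Ddx3y, given below. This test cannot tell temperature and that difference apart.

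Housing temperature separated some of these genes within a genotype. Of the 9, 3 were called in controls (1 higher and 2 lower at 22 °C), where 38.8% of all genes were (18.2% higher and 20.6% lower). In knockouts 5 were called (1 higher and 4 lower), where 51.1% of all genes were (21.8% higher and 29.4% lower). The share of the list lies near that of all genes in both. Slc38a2 was higher at 22 °C in both genotypes, with log2 differences of 0.82 in controls (SE 0.16, limma adjusted p = 0.00257) and 0.58 in knockouts (SE 0.16, limma adjusted p = 0.00998). Pycr1 was lower at 22 °C in both, at -0.49 in controls (SE 0.14, limma adjusted p = 0.0169) and -0.84 in knockouts (SE 0.14, limma adjusted p = 0.000456). Slc1a4 was lower too, at -0.57 (limma adjusted p = 0.0262) and -0.55 (limma adjusted p = 0.0243). In knockouts Aldh18a1 (-0.82, limma adjusted p = 0.00788) and Slc7a5 (-1.29, limma adjusted p = 0.00925) were also lower at 22 °C. Neither was called in controls (-0.48 and -0.55, limma adjusted p = 0.0982 and 0.242), although their ranges did not overlap between the temperatures there either. Of 9 alternatives besides leaving out single animals, 3 called Aldh18a1 and 2 called Slc7a5 lower in controls at 22 °C.

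Several of these temperature calls were near the threshold and were lost when 1 animal was left out. The Pycr1 call in controls was lost without control 2 or control 3 at 30 °C (limma adjusted p = 0.0552 and 0.0687). That of Slc1a4 in controls was lost without control 1 at 22 °C (limma adjusted p = 0.0636) or without control 1, 2 or 3 at 30 °C (0.0917, 0.0509 and 0.0558). In knockouts Slc1a4 lost it without knockout 1, 3 or 4 at 22 °C (limma adjusted p = 0.0585, 0.0571 and 0.0533) or without knockout 2 or 3 at 30 °C (0.0842 and 0.123). Slc7a5 in knockouts lost it without knockout 3 at 30 °C (-0.87, limma adjusted p = 0.0577). The groups at the 2 temperatures also differed in sex-linked transcripts. Xist was at 0 to 0.0139 scaled FPKM in the 8 animals at 22 °C and 9.7 to 15.3 in the 6 at 30 °C, and Ddx3y, a Y-linked gene, was at 16.3 to 23.9 and 0 to 0.0242. Temperature and the sex-linked difference cannot be told apart.

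**Figure D4:**
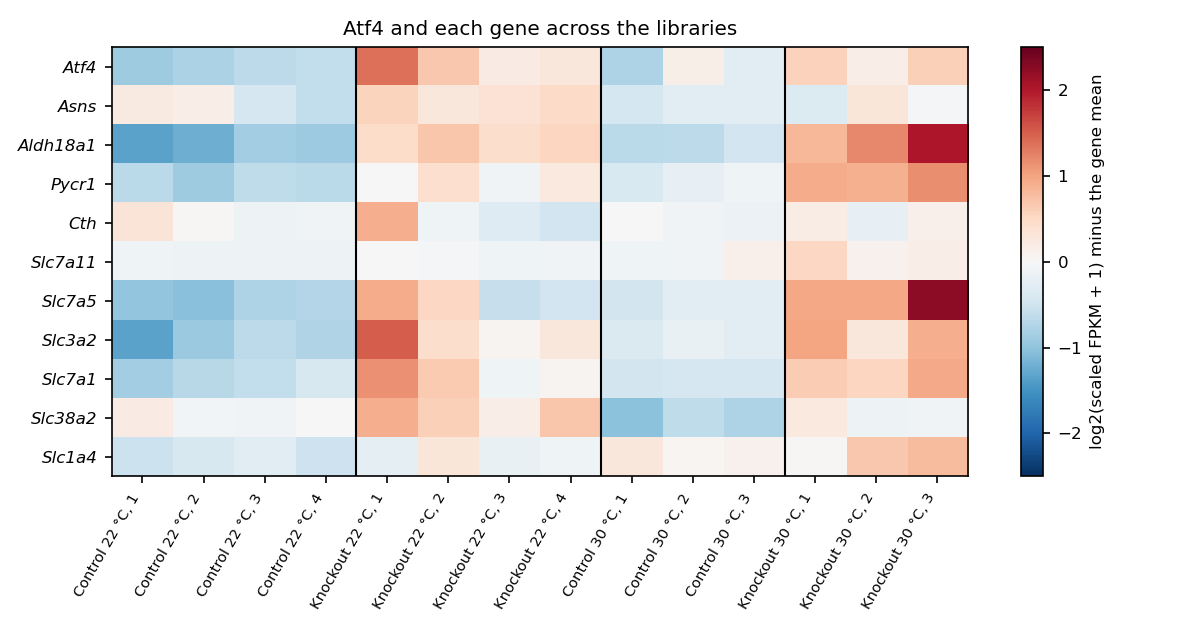
Log2 of scaled FPKM plus 1 of Atf4 and each of the 10 genes (y axis) in each of the 14 animals (x axis), shown as the colour of its difference from the mean of that gene over the animals, in log2 units. Knockout columns are redder than controls of the same temperature for Aldh18a1, Pycr1, Slc3a2 and Slc7a1, and Slc7a11 stays near 0 because its level is far below the added 1 FPKM.

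The animals that were highest or lowest in a group were counted over the 10 genes. Knockout 1 at 22 °C was the highest of its group for 7 of the 10 genes (Asns, Cth, Slc7a11, Slc7a5, Slc3a2, Slc7a1 and Slc38a2), and knockout 3 was the lowest for 7. Aldh18a1, Pycr1 and Slc1a4 were instead highest in knockout 2. At 30 °C knockout 3 was the highest for 5 genes (Aldh18a1, Pycr1, Slc7a5, Slc7a1 and Slc1a4) and knockout 2 the lowest for 7, while knockout 1 was the highest for 4 and the lowest for 3. In controls at 22 °C, control 1 was the highest for 4 genes and the lowest for 4, and control 3 the highest for 4 and the lowest for 2. In controls at 30 °C, control 1 was the lowest for 8 and controls 2 and 3 were the highest for 4 each. Atf4 itself was at 239, 147, 106 and 111 scaled FPKM in the knockouts at 22 °C, with knockout 1 again the highest, and at 48.8 to 59.7 in the controls. A log2 difference of 1.37 was fitted (SE 0.24, limma adjusted p = 0.0128) at 22 °C and 0.74 (SE 0.28, limma adjusted p = 0.0946) at 30 °C. At 30 °C the Atf4 values were 53.7, 101 and 75.4 in controls and 137, 103 and 139 in knockouts.

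The 4 genes called at both temperatures were set beside 13013 tested genes that have a symbol by the root mean square difference of log2 values centred on their mean over the 14 animals. Closest to Slc7a1 were Gtpbp2 (0.16), Sqstm1 (0.18) and Wars (0.18). Closest to Slc3a2 were Sqstm1 (0.25), Atf4 (0.25) and Slc7a1 (0.26). For Pycr1 they were Rcc2 (0.26), Sh3pxd2b (0.27) and Trim46 (0.27), and for Aldh18a1 Tgif1 (0.38), Rcc2 (0.42) and Arhgef2 (0.42). All 14 animals enter each value, so the likeness includes the temperature pattern as well as the genotype pattern.

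Other genes of amino acid handling were called in both directions. Of 32 other amino acid transporters 22 were tested, and 0 were called higher and 1 lower in knockouts at 22 °C, where 1.97% of all genes were called. The latter was Slc36a2, a proton-coupled carrier of small amino acids (-0.53, SE 0.12, limma adjusted p = 0.0476). At 30 °C 1 was higher and 3 were lower, where 14.1% of all genes were called. Slc7a7 rose (0.60), and Slc1a3 (-0.93, limma adjusted p = 0.015), Slc7a6 and Slc36a2 (-0.76, limma adjusted p = 0.0052) fell. The median log2 fold change of the 22 was -0.07 at 22 °C and 0.08 at 30 °C.

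Of 24 neighbouring enzymes 22 were tested. At 22 °C 0 were higher and 1 lower, Glul, the glutamine synthetase gene (-0.85, SE 0.17, limma adjusted p = 0.023). It was at 872 to 1256 scaled FPKM in controls and 487 to 770 in knockouts, without overlap. At 30 °C 3 were higher and 2 lower, beside the same 14.1% of all genes. The higher ones included Gclm and Gclc, the subunits of glutamate-cysteine ligase (0.95 and 0.47, limma adjusted p = 0.00248 and 0.00978). Glul (-1.17, limma adjusted p = 0.00295) and the cysteine dioxygenase gene Cdo1 (-0.70, limma adjusted p = 0.0308) fell.

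Of 16 other genes of the ATF4 pathway, all 16 tested, 9 rose and 0 fell at 22 °C, with a median of 1.18, where 1.97% of all genes were called. The largest were Trib3, a pseudokinase of the response (3.97, SE 0.37, limma adjusted p = 4.2e-05), Mthfd2, a mitochondrial folate enzyme (3.32, SE 0.22, limma adjusted p = 4.8e-06), Ddit3 (2.17, SE 0.26) and Atf5 (2.0, SE 0.25). At 30 °C 8 rose and 1, Eif4ebp1, fell (-0.37, limma adjusted p = 0.046), with a median of 0.97, where 14.1% of all genes were called. The largest there were Trib3 (3.46), Atf3 (3.14), Mthfd2 (2.71) and Atf5 (2.02). The 4 eIF2alpha kinase genes with Oma1 and Dele1, which relay mitochondrial stress to the kinase encoded by Eif2ak1, gave 0 calls of 6 tested at either temperature. For so short a list that lies near the shares of all genes called (1.97% and 14.1%). These lists were drawn up with earlier results of the same libraries known, so their directions are no independent evidence.

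**Figure D5:**
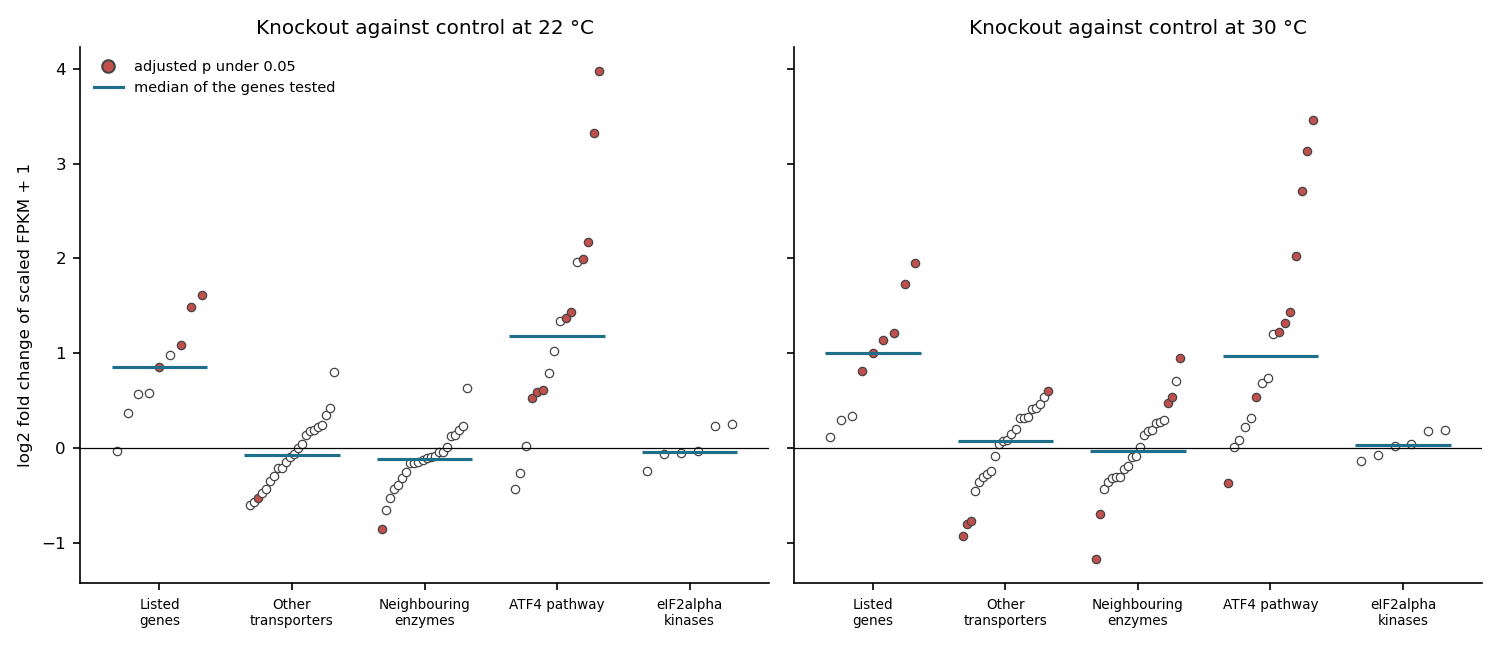
Log2 fold change of scaled FPKM plus 1 (y axis) of each tested gene in 5 lists, at 22 °C and 30 °C, with filled points for a limma adjusted p under 0.05 and a line for the median of each list. The group named eIF2alpha kinases also holds Oma1 and Dele1. The median of the examined genes is 0.86 and 1.0, and that of the other transporters is -0.07 and 0.08.

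Markers of other cell types moved with genotype at 30 °C. Over all genes tested, 14.1% were called there (8.82% higher and 5.28% lower) and 1.97% at 22 °C. The summed level of 12 macrophage markers was 127 to 434 scaled FPKM in controls and 675 to 2090 in knockouts at 30 °C, and 11 of the 12 were called higher, while none was absent from a group. At 22 °C the sum was 59.6 to 87.7 in controls and 99.3 to 220 in knockouts, and 0 of the 12 were called, although these ranges do not overlap and the median log2 fold change of the 12 was 0.56. The sum was highest in knockout 1 at 30 °C, which also had the most Slc7a11 reads, and control 3 at 30 °C, with the highest sum of its group, had 30 Slc7a11 reads. The knockouts at 22 °C did not follow that order. Knockout 1 had the most Slc7a11 reads (16) at a sum of 104, and knockout 2 had the highest sum (220) with 9 reads. The sum of 4 fibroblast and preadipocyte markers was 173 to 196 in controls and 329 to 669 in knockouts at 30 °C, with 3 of 4 called. Of 10 brown adipocyte markers 5 fell and 0 rose at 30 °C, and their sum was 13024 to 16123 in controls and 7236 to 9222 in knockouts. At 22 °C that sum was 17774 to 23502 and 14214 to 18510, with 1 called in each direction. Fabp4 made up much of it, with means of 12258 in controls and 8411 in knockouts. Means at 22 °C were higher in knockouts for Plin1, Pparg, Lipe, Ppargc1a and Elovl3 and lower for the other markers. The median log2 fold change of the 10 was 0.11 at 22 °C and -0.57 at 30 °C. Markers of skeletal muscle, endothelium and T and B cells gave 0 calls at both temperatures, though the muscle sum varied between 18.9 and 11440 scaled FPKM over the 3 controls at 30 °C. Knockout 3 at 30 °C, with the highest Slc7a5 and Aldh18a1, had a T and B cell marker sum of 35.5, against 5.80 to 14.96 in the other animals at 30 °C. Among knockouts at 22 °C, the animal with the highest Slc7a5 (knockout 1) had the lowest T and B cell sum (2.09). The one with the highest Aldh18a1 (knockout 2) had the highest (3.49). The part of these cell types in the results at either temperature was not tested.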

How the data were processed

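RNA of homogenized brown adipose tissue from 14 mice was sequenced on Illumina libraries, per the labels. The authors deposited 1 table of FPKM per gene and animal with Ensembl identifiers. The submitters' processing notes name the build mm9, while the aligner, counter, annotation and use of strand are not given in the sources used here. Symbols came from GENCODE M21 (34490 of 35275 genes) and promoter sequences from RefSeq GRCm38.p6, whose coordinates are not those of mm9. The genes examined and all lists were chosen with earlier results of these data known. The genes named from other lists were those called in a knockout comparison, up to the 4 largest changes in each, with proline genes, Lrpprc, Atf4, the 3 nearest genes in the likeness measure and the sex-linked genes beside them. Some genes of these lists are not reported here by name.

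Each library was divided by its median ratio to the geometric mean over 10049 nuclear genes above 1 FPKM in every library, with factors of 1.05 to 1.20 in knockouts and 0.823 to 0.947 in controls. Mitochondrial transcripts made up 21.8% to 28.5% of the summed FPKM in controls and 2.04% to 5.34% in knockouts. They were left out of the scaling for that reason. The 13079 genes that reached 1 FPKM in 3 or more libraries were tested on the log2 scale after a pseudocount of 1 was added to scaled FPKM, with limma 3.58.1 in R 4.3.3 (lmFit, contrasts, eBayes with trend). All 14 libraries entered 1 model with 4 group means and 5 comparisons, with two-sided p-values adjusted by Benjamini-Hochberg over all genes. Nothing in the labels says how animals were chosen, so p-values measure the spread between these animals. Whole reads could be recovered from the FPKM values for 13078 of the 13079 tested genes (99.99%, within 0.02 of a whole read), and depth was 15.9 to 21.3 M fragments, so that genes with few reads are imprecise. Scripts were tested on simulated data. Tables and plots used pandas 2.3.3, numpy 2.4.6 and matplotlib 3.10.9 under Python 3.11.15. Alternatives covered the pseudocount (0.1), the filter, the scaling, sample weights, a fit to the compared groups alone, leaving out the controls with R identifiers and leaving out each animal, and, chosen after seeing the data, limma voom on recovered reads.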

Additional observations from a re-analysis of the deposited data

Results flagged for a closer look

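In the controls at 22 °C, Slc7a11 was at 0.00643 scaled FPKM in control 1, from 1 read, and at 0 in the other 3, which set that library apart from its group by the gap between values. A single read lies below the 3 reads that a count of 0 allows. Of 22 groups examined in this way 1 stood out. Where all other values are 0 the gap always equals the range, so this group stood out by construction. A chance rate of about 1 in 20 does not apply to such counts.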

How the results depend on the processing

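No paired analysis was possible because the labels give each animal its own identifier and no number shared between groups. The count of examined genes called in knockouts was 4 at 22 °C, 7 with FPKM as deposited, 2 in a fit to the compared groups alone and 2 to 5 leaving out each animal in turn. At 30 °C it was 6, and 4 to 6 leaving out each animal. For temperature in controls it was 3, with 5 at a pseudocount of 0.1, 1 with quantile normalization, 6 with sample weights, 6 in a fit to the compared groups alone and 1 to 3 leaving out each animal. In knockouts it was 5, and 3 to 5. In the main fit 38.8% of all genes were called for temperature in controls and 51.1% in knockouts. The counts of examined genes called for temperature are therefore no result particular to this list. Over all genes, 258 were called at 22 °C, against 130 without the filter, 3248 with FPKM as deposited (3167 higher and 81 lower), 461 with nuclear genes scaled to the same total (386 and 75), 906 with sample weights, 83 in a fit to the compared groups alone and 71 to 271 leaving out each animal. At 30 °C 1845 were called, against 4571 as deposited (4280 and 291), 3652 with sample weights, and 890 to 2249 leaving out each animal. The split was 2225 and 409 with the same total and 887 and 935 with quantile normalization. The difference between the knockout effects gave 0, against 9 without the filter, 6 as deposited, 8 with quantile normalization, 10 with the same total, 213 with sample weights and 0 to 214 leaving out each animal, the highest without knockout 2 at 30 °C. Temperature gave 3497 to 5742 calls in controls and 5239 to 6556 in knockouts leaving out each animal. The split in controls was 1738 and 3200 as deposited and 2724 and 2220 with quantile normalization, and in knockouts 2289 and 4402, and 4203 and 2924. The same total shifted the median gene by 0.12 at 22 °C and 0.19 at 30 °C, and FPKM as deposited shifted it by -0.13 for temperature in controls and -0.16 in knockouts. FPKM as deposited has no scaling on nuclear genes, and the mitochondrial share of FPKM differed between genotypes. Calls made only with FPKM as deposited are to be read beside that difference. The cause of the shifts was not tested.

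Changes of sign were seen where the value was small. Cth in knockouts at 22 °C was 0.172 as deposited, 0.0617 with the same total and between -0.334 and 0.125 leaving out each animal, and at 30 °C it was -0.0316 with quantile normalization. For temperature in knockouts Cth was 0.187 with quantile normalization and between -0.343 and 0.116 leaving out each animal, and Slc3a2 was between -0.465 and 0.0181. The difference between knockout effects changed sign for Pycr1 (0.023 at a pseudocount of 0.1, 0.225 with voom), Slc7a1 (0.0733 and 0.151, 0.0873 without the R controls, and -0.286 to 0.129 leaving out each animal), Slc7a5 (0.211 with voom) and Asns (-0.0685 without the R controls). It did so for Slc1a4 (-0.0498 as deposited, -0.0145 with the same total, -0.211 to 0.17 leaving out each animal) and Cth (-0.449 to 0.0111 leaving out each animal). Depth limits Slc7a11, Slc7a5 and Pycr1 most, with at most 1, 18 and 20 reads in controls at 22 °C.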
